A study of Homo sapiens with 6 samples.

Results

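The genes described here stood at a lower RNA level after cGAMP than in the matched control in each of 3 lines of SK-OV-3 cells (SKOV3), which were established from an ovarian carcinoma. They were chosen on that difference itself. Of 60498 genes in the table, 12085 had a mean of at least 50 counts over the 6 libraries, and in 150 of these the ratio of the cGAMP to the control library in CPM (counts scaled to a library total of 1000000) was at most 0.667 in every line. Names that the rule sets aside (DKK1, CXCL1, CXCL2, CXCL3, CXCL8, CCL20, and symbols beginning with FOS, JUN, EGR, DUSP or NFKB) took out 11 of the 150, which left 139 members. The background share of genes at or under the limit in all 3 lines was 1.24%, and the members are 1.15% of the genes analysed. Since the ratio chose the members, their ratios are given as a description and without a test.

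The parent cells (WT/HAQ) were heterozygous for STING1, with a WT and a HAQ copy, where STING1 is the endoplasmic reticulum protein that binds the cyclic dinucleotide cGAMP and HAQ is a common haplotype of STING1 named after 3 amino acid changes. In each of the 2 edited lines 1 allele had been removed, leaving WT in WT/- and HAQ in HAQ/-. Each edited line was a clone grown from a single cell after lentiviral delivery of Cas9 with a pair of guides and puromycin selection, so allele and clone cannot be told apart. Each line gave 1 control library and 1 library from cells exposed to cGAMP (10 μg/mL, 30 min) in a buffer with digitonin, a detergent that opens the plasma membrane and lets cGAMP in, and no condition has a replicate. The methods of the study describe 4 h in fresh medium after the exposure, whereas the sample labels place the harvest right after treatment. How the control cells were handled is not described, so an effect of the permeabilization, the buffer or the change of medium cannot be told apart from an effect of cGAMP.

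Values of the 3 lines are given in the order WT/HAQ, WT/- and HAQ/- wherever they are not named, and estimated counts are printed rounded to whole numbers. The 6 libraries held between 12444791 and 17608427 counts, and the WT/- and HAQ/- cGAMP libraries were the smallest. Between 5.17% and 6.27% of the counts came from mitochondrial genes and between 6.73% and 7.34% from the 10 most abundant genes, with the ranges of the control and cGAMP libraries overlapping. Within each line the mitochondrial share was higher after cGAMP, at 5.95%, 5.58% and 6.27% beside 5.72%, 5.17% and 6.18% in the controls. STING1, listed under its older symbol TMEM173, stood at 43, 22.2 and 14.3 CPM in the controls and at 112, 33.3 and 26.9 CPM after cGAMP. The labelled cell type was checked on epithelial markers. EPCAM lay between 26.7 and 48.6 CPM, KRT19 between 22.2 and 362 CPM, KRT8 between 605 and 940.0 CPM, ERBB2 between 2795 and 4663 CPM and PAX8 between 124 and 590 CPM, while the leukocyte genes PTPRC, CD3E and LYZ had at most 3 counts in any library. CD68 lay between 25.7 and 43.9 CPM, and the summed level was 0.625 to 2.46 CPM for 3 endothelial markers and 73.9 to 123 CPM for 5 fibroblast markers, of which COL1A1 (50.9 to 67.4 CPM), COL1A2 and DCN were above 0 in every library and COL3A1 and PDGFRB at 0 in some. All 20 interferon-stimulated genes of a fixed list reached a ratio of at least 1.5 in every line, where 9.15%, 7.6% and 3.48% of all analysed genes did, and their median log2 ratio was 6.71, 4.97 and 4.78.

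Some of the members are immediate-early genes, YAP and TAZ targets or NF-κB targets. Immediate-early genes are transcribed within minutes of a growth factor, stretch or wound signal without new protein synthesis, and their RNAs are usually short-lived. YAP and TAZ are coactivators that enter the nucleus of spread cells under tension and drive genes such as CCN1 and CCN2 through TEAD factors, and NF-κB drives cytokine genes such as IL1A, IL1B, TNF and CSF2. cGAMP-bound STING1 recruits the kinase TBK1, which activates IRF3 and with it the interferon genes.

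The 139 members were lowest, relative to their own control, in WT/HAQ and least lowered in HAQ/-. The median ratio was 0.322 (WT/HAQ), 0.424 (WT/-) and 0.57 (HAQ/-), that is a median log2 ratio of -1.64, -1.24 and -0.81. Over all 12085 analysed genes the median log2 ratio was -0.05, -0.07 and -0.02, with SDs over genes of 0.80, 0.70 and 0.44, so the line with the widest spread over all genes was also the line with the lowest members. WT/HAQ held the lowest of the 3 ratios for 113 members, WT/- for 24 and HAQ/- for 2. In 91 members the ratios stood in the order WT/HAQ, WT/-, HAQ/- from lowest to highest. A ratio of at most 0.5 was reached by 124, 99 and 38 members of the respective lines, and by 31 in all 3. As a share of all counts, the members made up 1.88%, 2.57% and 1.26% of the control libraries and 0.565%, 1.15% and 0.717% of the cGAMP libraries.

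**Figure D1:**
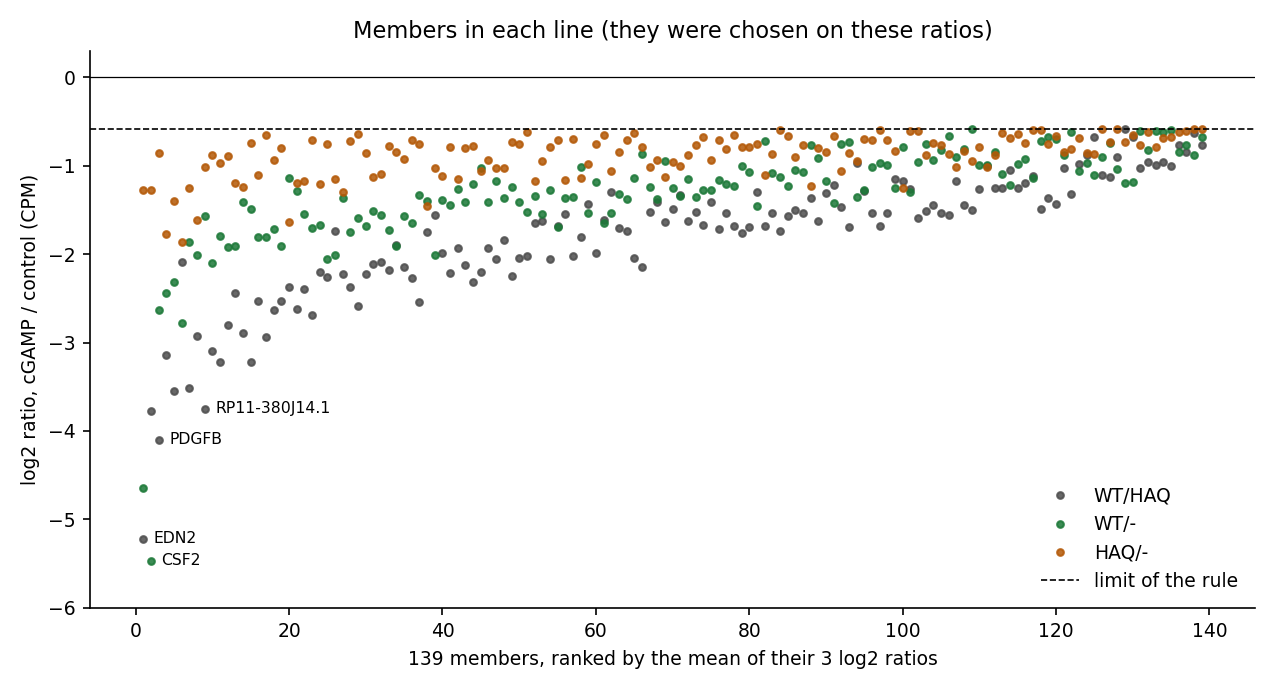
The log2 ratio of CPM, cGAMP over control (vertical axis), of each of the 139 members in WT/HAQ, WT/- and HAQ/- (1 point a line, 1 library a treatment), ranked by the mean of the 3 values, with a count of 0 set to 3. WT/HAQ points (median -1.64) lie lowest, WT/- points (median -1.24) between, and HAQ/- points (median -0.81) closest to the dashed limit of the rule, and EDN2, CSF2, PDGFB and RP11-380J14.1 are named at the left end.

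The counting error of a ratio is given as a 95% Wilson interval, which covers the sampling of reads and nothing else, since reads without molecular identifiers are not independent molecules and no condition has a second library. For 138 of the 139 members all 3 intervals lay below 1, ADGRF1 being the exception, and for 56 members all 3 intervals lay below the limit of 0.667 as well. The members just inside the limit were RP11-552F3.9, with a largest ratio of 0.6666, TSC22D2 with 0.666 and EIF1AD with 0.6656, all in HAQ/-. Just outside were ZFYVE27 with 0.6671, DEDD2 with 0.6675 and ZSWIM4 with 0.6682, also in HAQ/-. HAQ/- set the largest ratio of 113 members, so the membership was decided mostly in that line. The background share of genes at or under the limit was 10.6%, 7.76% and 2.96%.

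To read the ratio in a line whose ratio had no part in choosing the genes, the limit was applied to 2 lines at a time and the ratio was read in the remaining line, with the minimum mean count of 50 still taken over all 6 libraries. Of 153 genes at or under the limit in both WT/- and HAQ/-, 139 (90.8%) were so in WT/HAQ, and 151 had a ratio below 1 there, with a median log2 ratio of -1.56. Of 201 genes lowered in WT/HAQ and HAQ/-, 139 (69.2%) were at or under the limit in WT/- and 192 were below 1, with a median of -0.99. Of 601 genes lowered in WT/HAQ and WT/-, 139 (23.1%) were at or under the limit in HAQ/-, with a median of -0.35, although 559 of them were below 1. These shares stand beside the 10.6%, 7.76% and 2.96% of all analysed genes given above, and 56.4%, 59.9% and 55.6% of all analysed genes had a ratio below 1 in WT/HAQ, WT/- and HAQ/-. With the mean count taken only over the libraries of the 2 choosing lines, an alternative added after the data were seen, the shares were 91.45% (WT/HAQ), 70.26% (WT/-) and 23.39% (HAQ/-). With the minimum over all libraries lowered to 10 counts or raised to 200, the share was 71.9% or 97.17% in WT/HAQ and 56.12% or 80.47% in WT/-. The 3 lines share no library, but they share the treatment protocol.

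**Figure D2:**
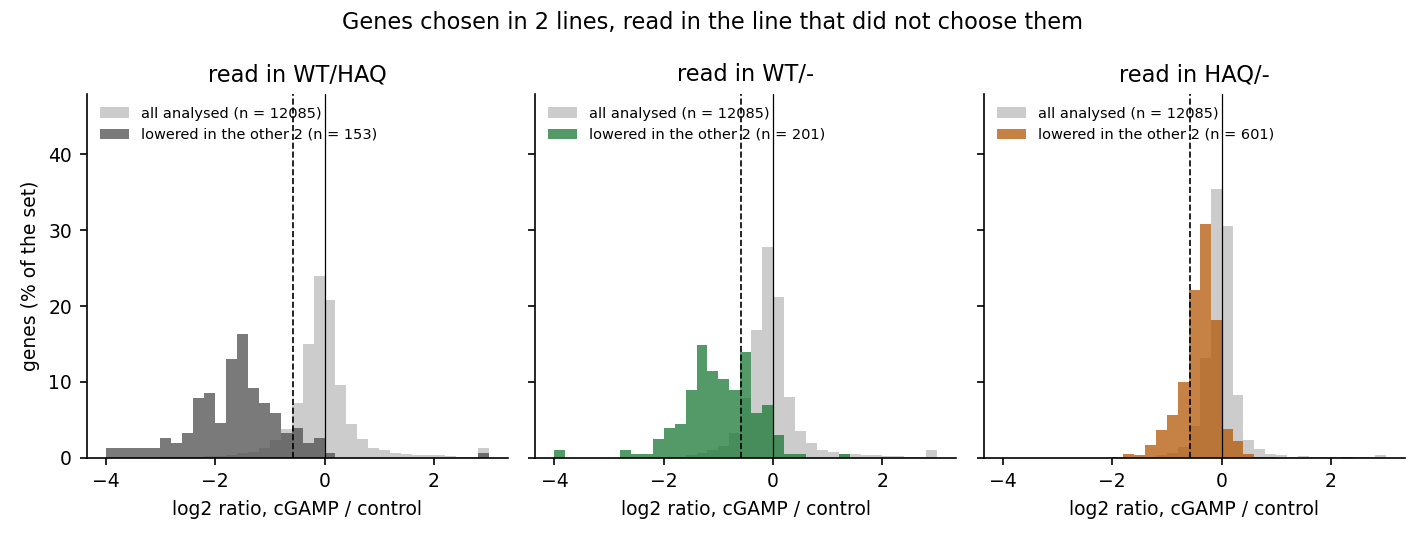
Distribution of the log2 ratio, cGAMP over control, in 1 line (horizontal axis) for genes at or under the limit in the other 2 lines (dark grey, green or orange) and for all 12085 analysed genes (light grey), with the limit of the rule dashed, as a percent of each set per bin of 0.2, with values beyond the axis placed in the end bins. The sets of 153, 201 and 601 genes have medians of -1.56, -0.99 and -0.35, and all analysed genes have medians of -0.05, -0.07 and -0.02.

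The members were sorted by what they are known to do into 10 classes, after their values had been seen. Secreted signals (13 members) had the lowest median log2 ratio of the classes in each line, -2.62, -1.80 and -1.15. They included cytokines, growth factors, endothelins and hormones, and their levels in the control libraries differed widely between the lines. CSF2, the gene of the granulocyte-macrophage growth factor GM-CSF (chr5:132073789-132076170, plus strand of GRCh38), had 43, 304 and 9 counts in the controls and 0, 5 and 0 after cGAMP. The WT/- control held most of its counts, and without that library its mean count would have stayed under the minimum of 50. With 0 counts after cGAMP, the counting interval of the ratio reached up to 0.0941 in WT/HAQ and 0.531 in HAQ/-, and the WT/- ratio was 0.0226 (0.00957 to 0.0531).

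Interleukin 1 is made as 2 related proteins from neighbouring genes on chromosome 2, and both genes were members. IL1A had control levels of 240 (WT/HAQ), 888 (WT/-) and 27 CPM (HAQ/-), and 77.2, 458 and 12.3 CPM after cGAMP. IL1B had control levels of 26.4 (WT/HAQ), 132 (WT/-) and 2.7 CPM (HAQ/-), and 5.74, 41.5 and 1.17 CPM after cGAMP. In both genes the cGAMP library lay below the control of its line, while the WT/- cGAMP library was higher than the controls of the other 2 lines. TNF, the founding cytokine of its family, had control levels of 42.5 (WT/HAQ), 290.2 (WT/-) and 10.4 CPM (HAQ/-), and 11.2, 121 and 4.68 CPM after cGAMP, with ratios of 0.263 (0.224 to 0.309), 0.417 (0.393 to 0.442) and 0.45 (0.338 to 0.598). Here too the WT/- library after cGAMP lay above both other controls.

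LIF, a cytokine of the interleukin 6 family, had control levels of 678 (WT/HAQ), 1522 (WT/-) and 415 CPM (HAQ/-), and 239, 896 and 225 CPM after cGAMP. PTX3, a soluble pattern recognition protein, had control levels of 36.8 (WT/HAQ), 86.7 (WT/-) and 3.7 CPM (HAQ/-), and 8.67, 12.6 and 1.02 CPM after cGAMP. The HAQ/- ratio of PTX3 was 0.276. Brain-derived neurotrophic factor (BDNF) had control levels of 46.9 (WT/HAQ), 56.6 (WT/-) and 28.1 CPM (HAQ/-), and 6.16, 14.1 and 9.23 CPM after cGAMP, with ratios of 0.132 (0.107 to 0.161), 0.249 (0.212 to 0.292) and 0.329 (0.27 to 0.399), and the 3 cGAMP libraries all lay below the lowest control.

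The vasoconstrictor peptides EDN1 and EDN2 were both members. EDN1 had control levels of 229.7 (WT/HAQ), 385 (WT/-) and 105 CPM (HAQ/-), and 37.4, 157 and 45.8 CPM after cGAMP. EDN2 was sparse, with 196, 103 and 36 counts in the controls and 5, 3 and 12 after cGAMP, and its ratios were 0.0269 (0.0114 to 0.0635), 0.0399 (0.0134 to 0.119) and 0.415 (0.218 to 0.788). The HAQ/- interval of EDN2 lay above those of both lines with a WT allele. PDGFB, a ligand of platelet-derived growth factor receptors, had control levels of 53.2 (WT/HAQ), 173 (WT/-) and 11 CPM (HAQ/-), and 3.11, 27.9 and 6.06 CPM after cGAMP, and the ratios of the 3 lines, 0.0585 (0.0442 to 0.0772), 0.161 (0.144 to 0.18) and 0.549 (0.424 to 0.71), had no overlap in their intervals. PTHLH, the parathyroid hormone-like hormone, had control levels of 104 (WT/HAQ), 13.5 (WT/-) and 66.4 CPM (HAQ/-), and 12.2, 3.13 and 36.2 CPM after cGAMP, and was the secreted member with the lowest WT/- control relative to WT/HAQ. The other 2 secreted members were C1QTNF1, with ratios of 0.107, 0.287 and 0.51, and adrenomedullin (ADM), with 0.63, 0.441 and 0.637.

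**Figure D3:**
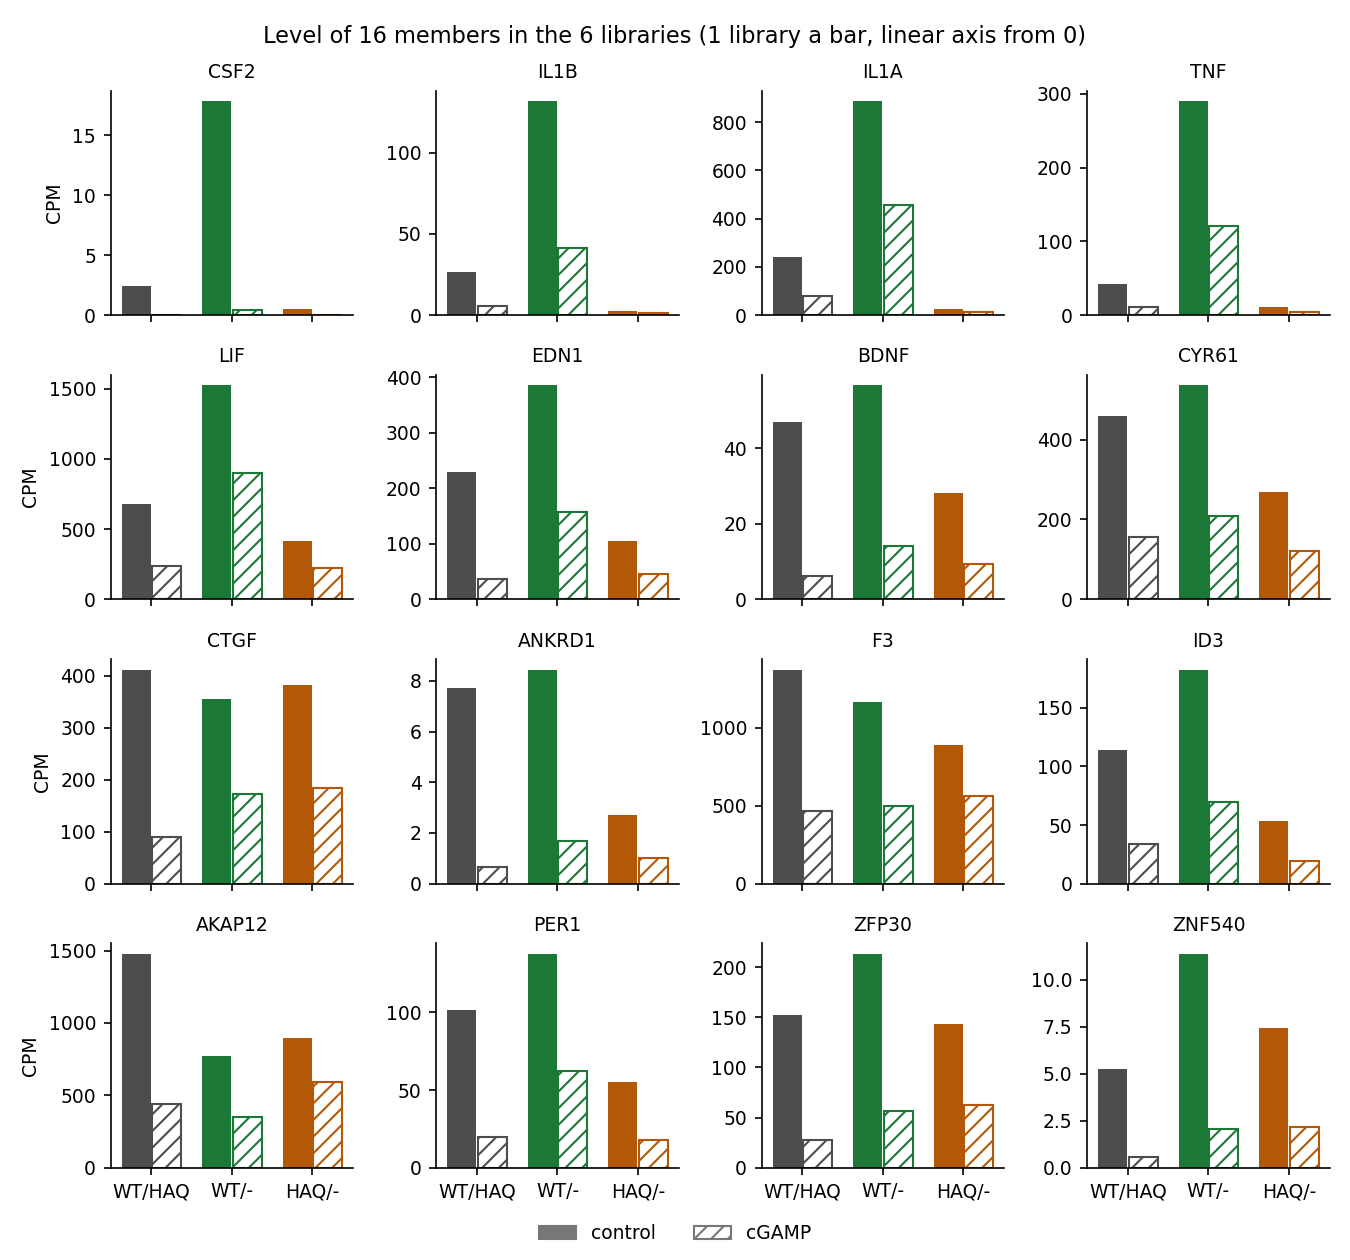
Level in CPM (vertical axis, linear and starting at 0) of 16 members in the control (filled) and cGAMP (hatched) library of WT/HAQ, WT/- and HAQ/-, 1 library a bar and therefore no error bar. Every hatched bar is lower than the filled bar beside it, as the rule requires, and for IL1A, IL1B, TNF and CSF2 the WT/- control is the highest of the 6 libraries.

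Several of these RNAs carry runs of the pentamer ATTTA, the core of AU-rich elements in the 3′ untranslated region, which are known to shorten the life of an RNA. The sequences below show the densest stretch of up to 30 bases in 4 members, with each pentamer in capitals, read from GENCODE release 44 (GRCh38).
CSF2 chr5:132076077-132076106 plus strand: aaatATTTATTTATTTATTTATTTAagttc
TNF chr6:31578001-31578030 plus strand: tATTTAttATTTATTTAttATTTATTTAtt
PIM1 chr6:37174987-37175016 plus strand: ttatgtATTTATTTATTTATTTAtttggtt
IL1B chr2:112829994-112830023 minus strand: gcttccctATTTATTTATTTAtttgtttgt

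CSF2 and TNF held 5 pentamers in such a stretch, PIM1, a short-lived kinase, held 4, as did PLD6 and RUSC2, and IL1B was among the members with 3. A stretch of 30 bases with at least 3 pentamers was found in 12 of 122 members (9.84%) and in 3.5% of 11230 analysed genes, and one with at least 4 in 5 members (4.1%) and 0.721% of analysed genes. Over the same protein-coding genes with a region of at least 50 bases, 105 of 122 members (86.1%) and 75.8% of 11230 analysed genes held an ATTTA anywhere in it. The median density was 2.57 per kb in the members and 1.82 per kb in the analysed genes, and 2.49 per kb in the members without the zinc finger genes. The share with at least 10 pentamers was no higher, at 14.8% of members and 16.4% of analysed genes. Members also had fewer exons (median 6 against 9) and a shorter span on the chromosome (median 21760 against 35580 bases), with similar transcript lengths (median 3502 against 3528 bases) and a GC content of 50.4% against 47.7%. These are descriptions of the annotation, and no RNA half-life was measured.

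Matrix, adhesion and actin genes (15 members) had a median log2 ratio of -2.12, -1.36 and -0.88. CCN1 and CCN2, matricellular proteins and textbook YAP targets, are listed under their older symbols CYR61 and CTGF. CYR61 had control levels of 459.7 (WT/HAQ), 535 (WT/-) and 269 CPM (HAQ/-), and 157, 207 and 120.1 CPM after cGAMP. CTGF had control levels of 411 (WT/HAQ), 354 (WT/-) and 383 CPM (HAQ/-), and 89.3, 173 and 183 CPM after cGAMP, with ratios of 0.217 (0.205 to 0.23), 0.488 (0.465 to 0.513) and 0.479 (0.457 to 0.501). The CTGF controls were within 1.2-fold of each other, and CTGF was lower in WT/HAQ after cGAMP than in the other 2 lines. ANKRD1, a muscle and YAP-driven ankyrin repeat protein, was at a low level throughout, with control levels of 7.72 (WT/HAQ), 8.44 (WT/-) and 2.7 CPM (HAQ/-), and 0.658, 1.69 and 1.02 CPM after cGAMP, and its ratios were 0.0852 (0.0465 to 0.156), 0.20 (0.127 to 0.315) and 0.379 (0.21 to 0.683). The protease ADAMTS1 had control levels of 218 (WT/HAQ), 198 (WT/-) and 131 CPM (HAQ/-), and 19.1, 54.6 and 55.1 CPM after cGAMP. AJUBA, a LIM protein that restrains the LATS kinases of the Hippo pathway, had ratios of 0.225, 0.337 and 0.528. AMOTL2, which holds YAP in the cytoplasm, had 0.421, 0.554 and 0.542.

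On the fixed list of YAP and TAZ targets, 6 of 26 analysed genes were members (F3, CYR61, CTGF, AMOTL2, AJUBA and ANKRD1), and 13, 11 and 7 of the 26 were at or under the limit in the 3 lines, beside the backgrounds of 10.6%, 7.76% and 2.96%. The list's median log2 ratio was -0.55, -0.41 and -0.24. The genes with the most counts among the other 20 stood on both sides of 1. The ecto-nucleotidase NT5E had ratios of 1.19, 1.27 and 1.3. The receptor kinase AXL had 0.413, 0.504 and 0.832, and the membrane repair protein MYOF had 0.871, 0.92 and 1.03. The SRF and actin list had 0 members among 14 analysed genes, where 1.15% of all analysed genes were members. At or under the limit were 5, 4 and 1 of the 14, with 0 at 1.5 or more in any line and a median log2 ratio of -0.41, -0.31 and -0.14, and ACTB stood at 0.981, 0.885 and 0.992.

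Of the 6 members on the list, 5 had a promoter in the RefSeq table, and 2 of these, CCN2 and ANKRD1, held the TEAD recognition letters GGAATG, while F3, AMOTL2 and AJUBA did not. The promoters of CCN2 and ANKRD1 are shown with GGAATG, and in CCN2 also the TATA box TATAAA, in capitals on either strand. The runs are the 250 bases before the annotated start (RefSeq, GRCh38.p14), written in the direction of transcription.
CCN2 promoter chr6:131951373-131951622 minus strand: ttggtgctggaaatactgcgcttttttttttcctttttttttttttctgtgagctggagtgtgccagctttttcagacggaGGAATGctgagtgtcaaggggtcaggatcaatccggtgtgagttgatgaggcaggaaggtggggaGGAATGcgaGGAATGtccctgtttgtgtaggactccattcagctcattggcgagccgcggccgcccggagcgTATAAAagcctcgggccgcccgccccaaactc
ANKRD1 promoter chr10:90921088-90921337 minus strand: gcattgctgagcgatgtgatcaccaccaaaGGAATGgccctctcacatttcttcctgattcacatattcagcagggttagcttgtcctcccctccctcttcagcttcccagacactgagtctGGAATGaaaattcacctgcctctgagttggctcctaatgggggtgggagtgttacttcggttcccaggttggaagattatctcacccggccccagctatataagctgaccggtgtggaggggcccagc

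CCN2 held 3 GGAATG matches, the nearest ending 89 bases before the start, and a TATAAA ending 26 bases before it, and ANKRD1 held 2 GGAATG matches, the nearest 122 bases before the start. Over the 99 members with a promoter in the RefSeq table (250 bases before to 50 after the start, both strands), GGAATG was held by 10.1%, against 10.4% of 9589 analysed genes and 14.1% of the 27305 promoters of the table. TATAAA was held by 14 of 99 members (14.1%), among them CTGF, F3, IL1A, TNF, CD83, ADM, KLF5 and GADD45B, against 5.09% of analysed genes and 12% of the table. TGANTCA, which includes the AP-1 site, was held by 7.07% of members, 4.31% of analysed genes and 7.76% of the table. The E-box CACGTG was held by 9.09% of members, 10.1% of analysed genes and 7.44% of the table, and the cAMP response element TGACGTCA by 3.03%, 3.35% and 1.98%. None of these letters includes another of the set. A match in these windows is a run of letters and not a measured site.

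The remaining members of the class were structural or signalling proteins of the cell edge. AKAP12, a scaffold for protein kinases A and C, took more counts in the WT/HAQ control than any other member, with control levels of 1476 (WT/HAQ), 774 (WT/-) and 896 CPM (HAQ/-), and 442, 354 and 592 CPM after cGAMP. Its HAQ/- ratio of 0.661 lay close to the limit. FRMD6, an upstream Hippo pathway protein, had control levels of 610.3 (WT/HAQ), 709.8 (WT/-) and 460.4 CPM (HAQ/-), and 94.8, 218 and 281 CPM after cGAMP. GEM, a small GTPase that shapes the cytoskeleton, had ratios of 0.213, 0.391 and 0.407. The hyaluronan synthase HAS3 had 0.209, 0.242 and 0.596 and DLC1, a GTPase-activating protein, had 0.241, 0.445 and 0.491. STARD13, of the same family as DLC1, the keratin KRT80 and the LIM domain proteins LMCD1 and PDLIM3 completed the class, with ratios between 0.23 and 0.659.

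Immediate-early and short-term regulators (15 members) had a median log2 ratio of -1.54, -1.25 and -0.85. ZFP36L1, a protein that binds AU-rich elements and promotes the decay of the RNA, had control levels of 1046 (WT/HAQ), 1638 (WT/-) and 804 CPM (HAQ/-), and 359, 825 and 490.1 CPM after cGAMP. IER3, a short-lived stress response protein, had control levels of 648 (WT/HAQ), 1022 (WT/-) and 396 CPM (HAQ/-), and 226, 402 and 231 CPM after cGAMP. Both were highest in the WT/- control. ERRFI1, a feedback inhibitor of the EGF receptor, had control levels of 655 (WT/HAQ), 555 (WT/-) and 431 CPM (HAQ/-), and 186, 273 and 195 CPM after cGAMP, and MAFF, a small bZIP factor, had control levels of 396 (WT/HAQ), 418 (WT/-) and 201 CPM (HAQ/-), and 194, 273 and 118 CPM after cGAMP. ID3, an inhibitor of basic helix-loop-helix factors and a target of BMP signalling, was the member of this class with the smallest largest ratio, with control levels of 114 (WT/HAQ), 183 (WT/-) and 53 CPM (HAQ/-), and 33.8, 69.3 and 19.3 CPM after cGAMP and ratios of 0.297 (0.271 to 0.326), 0.379 (0.352 to 0.409) and 0.364 (0.317 to 0.417). The ID3 ratios of the 3 lines were close, and the intervals of WT/- and HAQ/- overlapped.

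KLF5, a Krüppel-like factor of epithelial cells, had ratios of 0.22, 0.302 and 0.584. PLK2, a stress-induced kinase, had 0.191, 0.342 and 0.444, and SIK1, a kinase induced by cAMP, had 0.231, 0.351 and 0.458. SNAI2, a repressor of E-cadherin, had 0.398, 0.394 and 0.502, with almost the same ratio in both lines that carry a WT allele. The orphan nuclear receptor NR4A1, the stress protein GADD45B, the antiproliferative BTG2, the kinases PIM1 and PIM3 and the histone H3K27 demethylase KDM6B made up the rest, with ratios from 0.296 to 0.652. BTG2 was 1 of the members with the highest ratio in WT/-, at 0.652. On the fixed list of immediate-early genes, which the names set aside by the rule were not part of, 9 of 35 analysed genes were members. At or under the limit were 20, 18 and 12 of the 35, beside 10.6%, 7.76% and 2.96% of all analysed genes, at least 1.5 were 3, 3 and 2, beside 9.15%, 7.6% and 3.48%, and the median log2 ratio was -1.02, -0.61 and -0.46. Among the non-members with the most counts, the survival factor MCL1 had 1.05, 1.21 and 0.913, PHLDA1 had 0.711, 0.61 and 0.81 and the clock-linked repressor BHLHE40 had 0.865, 0.614 and 0.801. The list of ERK feedback genes had 1 member, IER3, among 13 analysed genes, where 1.15% of all analysed genes were members. At or under the limit were 4, 5 and 2 of the 13, beside the same 10.6%, 7.76% and 2.96%, and 1, 2 and 0 were at 1.5 or more.

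Of the NF-κB targets outside the names the rule set aside, 8 of 23 analysed genes were members (LIF, TNFAIP2, IL1A, IRAK2, TNF, IL1B, PTX3 and CSF2). At or under the limit were 16, 12 and 10 of the 23, beside 10.6%, 7.76% and 2.96% of all analysed genes (1.15% were members), and the median log2 ratio was -1.34, -0.59 and -0.43. TNFAIP2, a cytokine-induced protein of membrane protrusions, had control levels of 638 (WT/HAQ), 1670 (WT/-) and 31.6 CPM (HAQ/-), and 198, 795 and 18.3 CPM after cGAMP. Its controls spanned a wider range than those of any other member, with HAQ/- lowest. IRAK2, a kinase of the interleukin 1 receptor pathway, had control levels of 107 (WT/HAQ), 265 (WT/-) and 45.8 CPM (HAQ/-), and 37.9, 176 and 23.8 CPM after cGAMP, with a WT/- ratio of 0.665. Of the non-members, TNFAIP3, a deubiquitinase that limits NF-κB, had 0.358, 0.691 and 0.392 and missed the rule through WT/-. The superoxide dismutase SOD2 had 1.16, 1.24 and 0.974 and TNIP1 had 1.57, 1.46 and 1.19, so genes of the list stood on both sides of 1. Signalling proteins as a class (14 members) had a median log2 ratio of -1.60, -1.07 and -0.72. BMF, a BH3-only protein that promotes apoptosis, had control levels of 11.2 (WT/HAQ), 52.3 (WT/-) and 5.23 CPM (HAQ/-), and 3.65, 23.5 and 2.85 CPM after cGAMP. IRS1, the insulin receptor substrate, had ratios of 0.303, 0.446 and 0.613. The catalytic phosphoinositide 3-kinase subunit PIK3CD had 0.166, 0.332 and 0.64 and PIK3IP1, an inhibitor of that kinase, had 0.366, 0.52 and 0.60, so both the enzyme and its inhibitor were members. C8orf4 (TCIM) had its highest ratio in WT/-, at 0.607. RASGRP1, SH2D3A, GATSL3 (CASTOR1, an arginine sensor of the mTORC1 pathway), STAM, the cyclin CCNG2 and the AMP-activated kinase subunit PRKAG2 had ratios from 0.243 to 0.655. SMAD6, an inhibitor of BMP signalling, had 0.311, 0.309 and 0.61, and with ID3 it was 1 of 2 members on the list of 30 analysed TGF-beta and BMP genes, of which 8, 10 and 2 were at or under the limit.

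Surface receptors and membrane proteins (11 members) had a median log2 ratio of -1.57, -1.23 and -0.71. F3, the tissue factor that starts coagulation, had control levels of 1370 (WT/HAQ), 1163 (WT/-) and 885 CPM (HAQ/-), and 463, 498 and 562 CPM after cGAMP. EFNA1, a ligand of Eph receptors anchored in the membrane, had control levels of 156 (WT/HAQ), 438 (WT/-) and 58.2 CPM (HAQ/-), and 21.1, 165 and 24.6 CPM after cGAMP. The HAQ/- cGAMP level of F3 was the highest of its 3 cGAMP levels, although its HAQ/- control was the lowest. The interleukin 6 receptor gene IL6R had control levels of 58 (WT/HAQ), 65.6 (WT/-) and 56.1 CPM (HAQ/-), and 6.22, 23.4 and 33.6 CPM after cGAMP, with controls that lay within 1.2-fold of each other and ratios of 0.107 (0.0877 to 0.131), 0.356 (0.313 to 0.406) and 0.599 (0.536 to 0.669). The WNT receptor FZD8 had 0.208, 0.319 and 0.613 and was the only member among 26 analysed genes of the WNT list, beside 1.15% of all analysed genes. Of the 26, 6, 6 and 1 were at or under the limit, beside 10.6%, 7.76% and 2.96% of all analysed genes. A ratio of at least 1.5 was held by 6, 6 and 2, beside 9.15%, 7.6% and 3.48%. PTCH1, the Hedgehog receptor, had 0.664, 0.436 and 0.604 and was 1 of 2 members with the highest ratio in WT/HAQ, the other being CH507-338C24.1. CD83, a surface protein of activated antigen-presenting cells, had control levels of 29.8 (WT/HAQ), 128 (WT/-) and 8.58 CPM (HAQ/-), and 12.5, 60.0 and 5.55 CPM after cGAMP. GPR132, EVA1A and CHIC2 had ratios from 0.246 to 0.651. ADGRF1 was sparse, with 87, 183 and 27 counts in the controls and 45, 68 and 12 after cGAMP, and its HAQ/- interval reached from 0.284 to 1.08.

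Circadian clock and hormone response genes (7 members) had a median log2 ratio of -1.68, -0.97 and -0.79. PER1 and PER2 are repressors of the clock, ARNTL (BMAL1) is its activator and NR1D1 (REV-ERBα) represses ARNTL. PER1 had control levels of 102 (WT/HAQ), 138 (WT/-) and 55.2 CPM (HAQ/-), and 19.7, 62.4 and 17.8 CPM after cGAMP, with ratios of 0.193 (0.172 to 0.217), 0.454 (0.418 to 0.492) and 0.322 (0.28 to 0.371). The PER1 interval of HAQ/- lay between those of the other 2 lines, against the usual order of the members. NR1D1 had control levels of 211 (WT/HAQ), 297 (WT/-) and 156 CPM (HAQ/-), and 76.2, 175 and 75 CPM after cGAMP. ARNTL, whose transcription NR1D1 represses, was lower as well, with ratios of 0.313, 0.512 and 0.661, and PER2 had 0.457, 0.597 and 0.604. On the fixed clock list 4 of 16 analysed genes were members, and 10, 7 and 6 of the 16 were at or under the limit, beside 1.15% of all analysed genes for the members and 10.6%, 7.76% and 2.96% for the limit, with a median log2 ratio of -0.76, -0.48 and -0.44. Of the rest, the repressor CRY1 had 0.658, 0.722 and 0.778 and NR1D2, a relative of NR1D1, had 0.643, 0.938 and 0.677.

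PER1 is also a target of the glucocorticoid receptor and of cAMP signalling. Among 8 analysed glucocorticoid targets 3 were members (ERRFI1, TSC22D3 and PER1), beside 1.15% of all analysed genes, and 5, 4 and 3 were at or under the limit. TSC22D3, the glucocorticoid-induced leucine zipper, had ratios of 0.502, 0.656 and 0.58. SGK1, a kinase of the same list, had 0.132, 0.312 and 0.725 and stood outside the rule through HAQ/-. Among 12 analysed cAMP response genes 3 were members (PER1, SIK1 and NR4A1) and 5, 4 and 4 were at or under the limit. The background for each list of this paragraph is the 10.6%, 7.76% and 2.96% of all analysed genes at or under the limit. The aryl hydrocarbon receptor repressor AHRR was the only member of 5 analysed targets of that receptor, with 0.278, 0.388 and 0.489, with 1, 1 and 1 of the 5 at or under the limit, while the oxidase CYP1B1 of the same list had 4.67, 2.98 and 1.74. The retinoic acid receptor gene RARA completed the class with 0.247, 0.393 and 0.614.

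Zinc finger genes (15 members) had a median log2 ratio of -1.43, -1.35 and -0.94, with the smallest gap between the lines of any class. Most belong to the KRAB zinc finger family, repressors that bind repeats of viral origin in the genome and lie in clusters on chromosome 19. Of 226 analysed symbols on chromosome 19 beginning with ZNF, ZFP, ZSCAN or ZKSCAN, 11 (4.87%) were members, and of 253 elsewhere or unplaced 3 (1.19%) were. These 3 were ZNF674, its antisense RNA ZNF674-AS1 and ZFP36L1, the RNA decay protein placed in the immediate-early class. Of 654 other genes on chromosome 19, 2 (0.306%) were members. The median log2 ratio of the 226 genes was -0.15, -0.23 and -0.20. Among the 438 analysed symbols beginning with ZNF, 12 were members. At or under the limit were 60, 49 and 35 of them (10.6%, 7.76% and 2.96% of all analysed genes), and 35, 19 and 2 had a ratio of at least 1.5 (9.15%, 7.6% and 3.48%).

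A run of 7 members with gaps of at most 200 kb lay at chr19:37371061-37692337, and it was the only run of more than 3 members. In order it held ZNF527, ZNF569, ZNF570, ZNF540, ZNF571, ZFP30 and ZNF781, the last annotated as a transcribed pseudogene. ZNF793, between ZNF570 and ZNF540, was the only other analysed gene in the run, with ratios of 1.01, 0.749 and 0.642. ZFP30 had control levels of 152 (WT/HAQ), 213 (WT/-) and 144 CPM (HAQ/-), and 28.2, 56.5 and 62.3 CPM after cGAMP, with ratios of 0.185 (0.168 to 0.204), 0.265 (0.245 to 0.287) and 0.434 (0.402 to 0.47). ZNF540 was sparse, with 93, 194 and 127 counts in the controls and 10, 26 and 30 after cGAMP, and its ratios were 0.113 (0.0596 to 0.215), 0.184 (0.122 to 0.276) and 0.294 (0.198 to 0.436). ZNF569 had control levels of 65.8 (WT/HAQ), 54.2 (WT/-) and 79.7 CPM (HAQ/-), and 23, 23 and 39.5 CPM after cGAMP, and ZNF570 had control levels of 24.2 (WT/HAQ), 27.8 (WT/-) and 32.6 CPM (HAQ/-), and 9.15, 10.7 and 16.9 CPM after cGAMP. In both, the HAQ/- control was the highest of the 3 controls. ZNF571 (0.407, 0.345 and 0.481), ZNF527 (0.509, 0.392 and 0.516) and ZNF781 (0.505, 0.479 and 0.622) had their lowest ratio in WT/-.

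ZNF569 (minus strand) and ZNF570 (plus strand) are transcribed away from each other, with RefSeq starts 328 bases apart. The stretch upstream of both, shared by their promoters of 250 bases, is shown because a pair of members lies on either side of it, and it holds neither TATAAA nor GGAATG.
ZNF569 and ZNF570 shared stretch chr19:37467522-37467694 plus strand: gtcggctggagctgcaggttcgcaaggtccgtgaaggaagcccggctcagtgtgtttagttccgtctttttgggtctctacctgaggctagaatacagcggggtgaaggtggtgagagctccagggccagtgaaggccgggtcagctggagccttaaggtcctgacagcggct

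Of 29 analysed genes within 1 Mb on either side of the run, 1 was a member (ZNF566), and 7, 5 and 4 were at or under the limit, beside the 10.6%, 7.76% and 2.96% of all analysed genes. ZNF382, about 0.77 Mb to the left, was higher after cGAMP, with ratios of 5.93, 4.57 and 1.48, and ZNF529 beside it had 1.93, 1.78 and 0.947. HKR1, the left neighbour of the run, had 0.76, 0.746 and 0.795, and ZNF607, the right neighbour, had 0.579, 0.622 and 0.863. ZFP82, close to ZNF566, missed the rule through HAQ/- with 0.377, 0.309 and 0.674. Several of these genes overlap on opposite strands (ZNF569 with ZNF570, and ZNF540 with ZNF571 and ZFP30), and whether the counting used strand is not given in the sources used here, so reads of overlapping partners may have been shared. ZNF781 lies within the span of ZFP30 on the same strand, and how their reads were split was not tested.

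**Figure D4:**
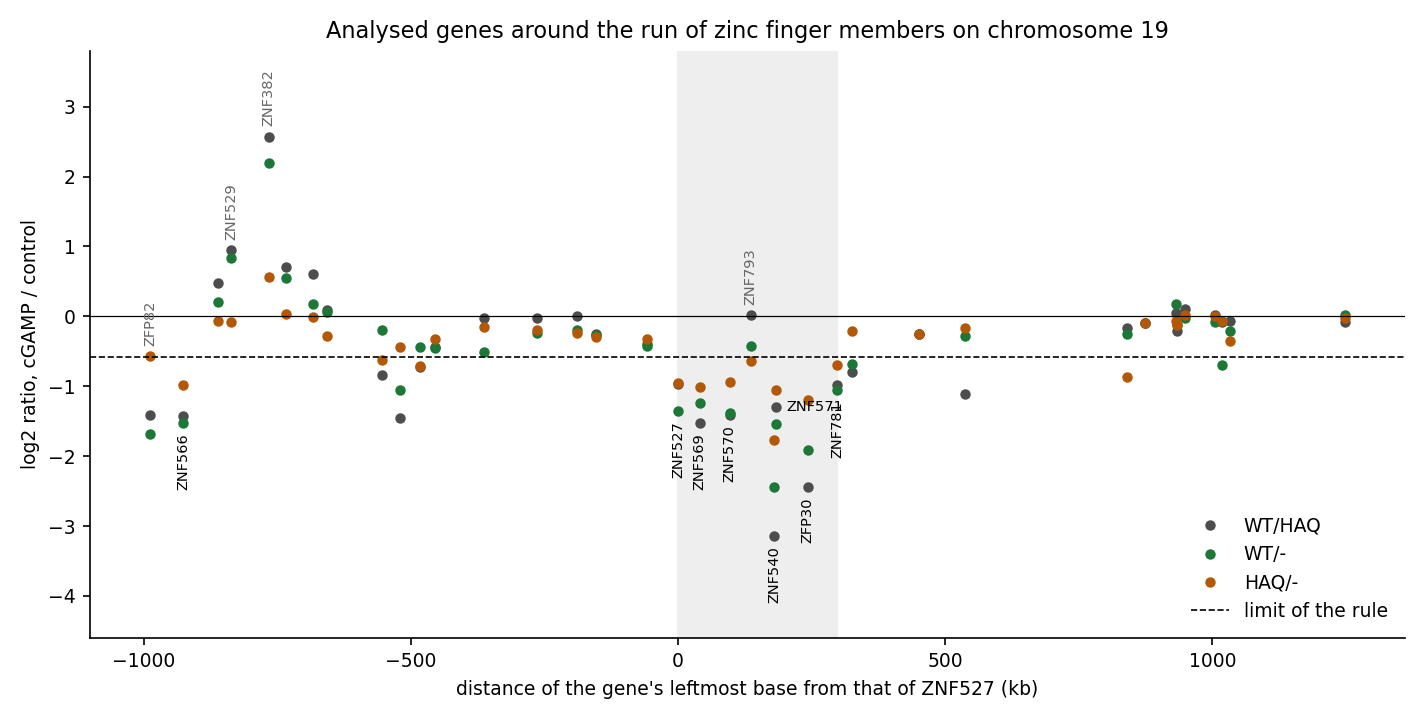
The log2 ratio, cGAMP over control (vertical axis), of the 37 analysed genes within 1 Mb of the run of zinc finger members on chromosome 19, by the distance of the gene's leftmost base from that of ZNF527 in kb, with 1 point a line and the run shaded. The members in the run lie under the dashed limit in all 3 lines, ZNF793 at 136 kb does not, and ZNF382 at -766 kb lies above 0 in all 3 lines.

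Outside the run, the transcribed pseudogene ZNF542P had control levels of 542 (WT/HAQ), 572 (WT/-) and 440.4 CPM (HAQ/-), and 87.7, 173 and 231 CPM after cGAMP. Its neighbour ZNF582, which overlaps it on the other strand, had ratios of 0.345, 0.431 and 0.57. ZNF674 on chromosome X had 0.39, 0.585 and 0.427 and its antisense RNA ZNF674-AS1 had 0.353, 0.483 and 0.537, and they overlap as well. ZNF431 had 0.451, 0.421 and 0.564, GLIS2 had 0.416, 0.406 and 0.657 and ZBED2 had 0.268, 0.267 and 0.556. Near-identical paralogs are common in this family, and how the counting split reads between copies was not tested.

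Other transcription and chromatin proteins (11 members) had a median log2 ratio of -1.41, -1.22 and -0.72. BCL9L, a coactivator of beta-catenin, had control levels of 531 (WT/HAQ), 800.3 (WT/-) and 372 CPM (HAQ/-), and 103, 238 and 225 CPM after cGAMP. ELL2, an elongation factor of RNA polymerase II, had 0.243, 0.377 and 0.592, and NFATC2, a calcium-regulated factor, had 0.21, 0.424 and 0.603. LHX1, a homeobox factor of kidney development, had 0.327, 0.318 and 0.639, with nearly equal ratios in the lines that carry a WT allele. The others were SERTAD2, MEF2D, CCDC85B, TSC22D2, MYBL1, JRK and ARID3B, with ratios from 0.345 to 0.666. Enzymes, carriers and housekeeping genes (20 members) had a median log2 ratio of -1.65, -1.12 and -0.79. UGCG, which makes glucosylceramide, had control levels of 111 (WT/HAQ), 252 (WT/-) and 61.5 CPM (HAQ/-), and 29.1, 95.1 and 31.9 CPM after cGAMP. SPDL1, a protein of the mitotic kinetochore, had control levels of 218 (WT/HAQ), 203 (WT/-) and 250.2 CPM (HAQ/-), and 52.7, 83.2 and 145 CPM after cGAMP, although 0 of 25 analysed genes of the S phase and G2/M list were members. FIGN, a microtubule-severing ATPase, had 0.13, 0.284 and 0.636. The metallothionein MT1F, which has near-identical copies, had its highest control level in WT/HAQ, with control levels of 15.4 (WT/HAQ), 2.58 (WT/-) and 6.64 CPM (HAQ/-), and 3.29, 0.803 and 3.65 CPM after cGAMP. SLC2A6, a lysosomal sugar carrier, had 0.235, 0.34 and 0.471, and the thiamine carrier SLC19A2 had 0.31, 0.603 and 0.551. PLD6, an enzyme of the mitochondrial surface, had 0.499, 0.502 and 0.495, the closest 3 ratios of the class. YOD1 (a deubiquitinase), ARRDC4, PADI1, the lipid phosphatase LPIN1, TBC1D22B, CDKN2AIP, ABTB2, RUSC2, EPG5, NABP1, GORAB and EIF1AD had ratios from 0.201 to 0.666. A gene listed as SERPINA3 had 0.407, 0.363 and 0.59. That entry carries the identifier ENSG00000273259, a second gene under the same symbol, and its reads may belong to either.

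Non-coding and uncharacterised genes (18 members) had a median log2 ratio of -1.64, -1.34 and -0.85. Of 135 members found in GENCODE release 44, 122 are protein-coding, beside 11370 of 12030 analysed genes with a position, and 7 are long non-coding RNAs, beside 400. CH507-42P11.8 on chromosome 21, to which GENCODE release 44 gives the type artifact, had control levels of 202 (WT/HAQ), 348 (WT/-) and 181 CPM (HAQ/-), and 43.5, 127 and 105 CPM after cGAMP. Whether its reads belong to another copy of a gene was not tested. RP11-284F21.10, on the same strand as MEF2D and within 200 kb of it, had control levels of 55.5 (WT/HAQ), 57 (WT/-) and 51.6 CPM (HAQ/-), and 14, 25.1 and 30.5 CPM after cGAMP. CH507-338C24.1, on chromosome 21 as well, had 0.629, 0.466 and 0.549. RP11-380J14.1, beside PADI1 on chromosome 1, had 85, 102 and 68 counts in the controls and 6, 25 and 27 after cGAMP, and EDN2 and PDGFB were among the members with a lower WT/HAQ ratio than its 0.0743. RP11-347C12.3 had 0.444, 0.576 and 0.42, with its lowest ratio in HAQ/-. The protein-coding FAM196B (INSYN2B) had 0.143, 0.264 and 0.541. KAAG1, TMEM265, C1orf116, C11orf68, AC006116.24, AC006116.27, RP3-331H24.6, RP3-331H24.7, RP11-102K13.5, RP11-394B2.1, RP11-552F3.9 and another lncRNA had ratios from 0.172 to 0.667.

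The other fixed lists held between 0 and 2 members each, where 1.15% of all analysed genes were members. Growth factors and receptor kinases had 2 of 31 (EFNA1 and PDGFB), with 14, 13 and 4 at or under the limit and 5, 4 and 6 at 1.5 or more, beside 10.6%, 7.76% and 2.96%, and 9.15%, 7.6% and 3.48%, of all analysed genes. Proteoglycan and matrix genes had 2 of 18 (ADAMTS1 and HAS3) with 5, 6 and 2 at or under the limit, and chromatin regulators 1 of 21 (KDM6B) with 4, 5 and 2. Cytokine receptors and adhesion genes had 1 of 29 (IL6R) with 4, 3 and 1, hypoxia targets 1 of 17 (ADM) with 2, 5 and 1, and solute carriers (symbols beginning with SLC) 2 of 193 with 21, 19 and 3. The Notch pathway (13 analysed genes), the integrated stress response (14), the heat shock response (14), sterol and lipid synthesis (15) and the interferon-stimulated genes (20) had 0 members each. At or under the limit were 3, 4 and 0 of the Notch genes, 3, 2 and 3 of the stress response genes and 1, 1 and 0 of the heat shock genes. The sterol and lipid list had 5, 3 and 1, and the interferon-stimulated genes had 0 in every line. The median log2 ratio of the sterol and lipid synthesis list was -0.46, -0.40 and -0.12, and HMGCS1 of that list stood at 0.396, 0.676 and 0.778. Genes beginning with KLF had 1 member of 13, and ZBTB, ZSCAN, ZKSCAN, SOX, FOX and HOX genes had 0 of 41, 15, 6, 7, 23 and 16. Of the 16 HOX genes 11, 8 and 1 had a ratio of at least 1.5, beside 9.15%, 7.6% and 3.48% of all analysed genes.

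The members also differed in level between the lines. In the control libraries the median member stood 0.36 higher on the log2 scale in WT/- than in WT/HAQ, where all analysed genes had a median of -0.04. In HAQ/- the median member stood at -0.43 relative to WT/HAQ, where all analysed genes had a median of 0.05. The HAQ/- control was at most 0.667 of the WT/HAQ control in 58 of 139 members and in 4.6% of all analysed genes, and at least 1.5 of it in 2 members and in 4.88% of all analysed genes. The WT/- control was at least 1.5 times the WT/HAQ control in 49 members and in 8.57% of all analysed genes. It was at most 0.667 of the WT/HAQ control in 14 members and in 7.89% of all analysed genes. The control library of a line also enters the ratio that chose the members, so these levels are given as a description.

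The gap was widest in the secreted signals, whose median control log2 ratio was 1.24 for WT/- to WT/HAQ and -2.21 for HAQ/- to WT/HAQ, with all 13 lower in HAQ/- than in WT/HAQ. In the zinc finger genes the 2 medians were 0.20 and 0.00. At the upper end, the WT/- control was 7.3 times the WT/HAQ control for CSF2, 6.83 times for TNF, 5.0 times for IL1B and 4.68 times for BMF. PTHLH, MT1F and GEM stood near the other end, with 0.13, 0.167 and 0.394. The HAQ/- control was 0.0495 of the WT/HAQ control for TNFAIP2, 0.101 for PTX3, 0.102 for IL1B and 0.113 for IL1A. PTCH1, CH507-338C24.1, EVA1A and ZNF527 were the members with the highest HAQ/- control relative to WT/HAQ, at 2.23, 1.95, 1.49 and 1.43.

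**Figure D5:**
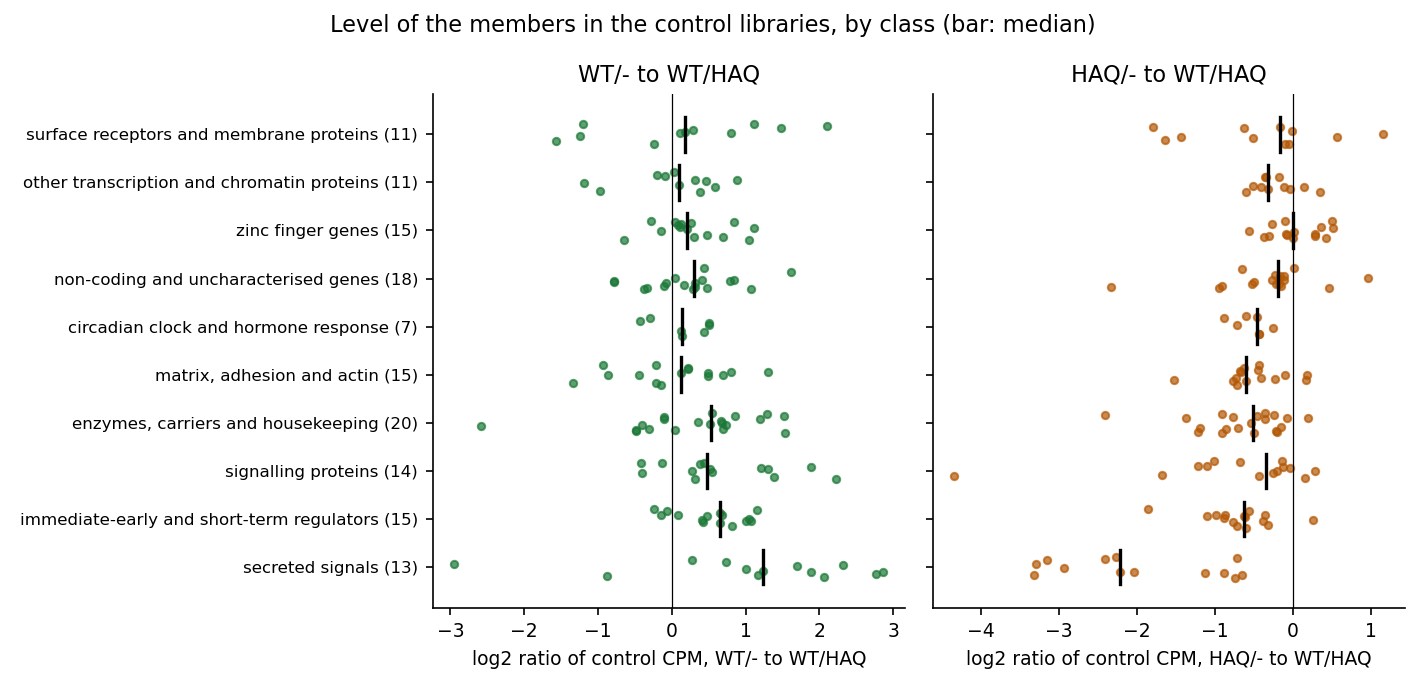
Log2 ratio of CPM between the control libraries of 2 lines (horizontal axis; left, WT/- to WT/HAQ; right, HAQ/- to WT/HAQ) for each of the 139 members, by class with the number of members, where the bar is the class median and points are spread vertically to be seen. Secreted signals have medians of 1.24 and -2.21 and zinc finger genes of 0.20 and 0.00.

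Differences between lines were tested with edgeR's quasi-likelihood F test on an additive fit of line and treatment over 15126 genes (at least 10 counts on average), which treats the control and the cGAMP library of a line as its 2 samples after the mean treatment effect is taken out and leaves 2 residual degrees of freedom. A call needs an adjusted p (Benjamini-Hochberg over all 15126 genes) under 0.05 and compares these cultures, since each line is 1 culture. The test uses the same 6 libraries whose ratios and mean count chose the members, so the members' calls are given as a description beside those of all genes. WT/- against WT/HAQ called 36 members higher and 2 lower, among them the metallothionein MT1F, beside 4.99% and 3.81% of all genes tested. HAQ/- against WT/HAQ called 0 members higher and 11 lower, beside 0.377% and 0.846%, with 43 members and 2831 of all genes at an unadjusted p under 0.05 in either direction. The Wald test of DESeq2 called 1 member higher and 22 lower there, beside 182 and 382 of all genes. HAQ/- against WT/- called 11 members higher and 58 lower, beside 7.95% and 11.1%. Over the 4 libraries of the other lines, without those of WT/-, 6 members had a mean under 50 counts, CSF2 and ADGRF1 among them, and these gave 3 of the 36 higher calls of WT/- against WT/HAQ, 1 of the 11 lower calls of HAQ/- against WT/HAQ and 4 of the 58 lower calls of HAQ/- against WT/-. EDN2 and RP11-347C12.3 had a mean under 50 without the WT/HAQ libraries, and RP11-347C12.3 was called lower in HAQ/- against each of the other lines. By class, 10 of 13 secreted signals and 11 of 15 immediate-early and short-term regulators were lower in HAQ/- than in WT/-, and 1 of 15 zinc finger genes was, with 2 higher (ZNF431 and ZNF569).

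By edgeR, IL1A was lower in HAQ/- than in WT/- by a log2 difference of -5.26 ± 0.21 (SE) (adjusted p = 0.00139), with adjusted p-values from 6.42e-118 to 0.0593 over the alternatives. IL1B differed by -5.62 ± 0.24 (SE) (adjusted p = 0.00139, alternatives 6.62e-62 to 0.06) and CD83 by -3.81 ± 0.16 (SE) (adjusted p = 0.00139, alternatives 2.99e-54 to 0.0593). Both libraries of HAQ/- lay below both libraries of WT/- in these 3 genes. Each SE was derived as the absolute log2 difference divided by the square root of F. It rests on 2 residual degrees of freedom, with a line's control and cGAMP library in place of replicates. Between WT/- and WT/HAQ the members with the smallest adjusted p were TNF, with 3.12 ± 0.2 (SE) (adjusted p = 0.00465, alternatives 8.29e-36 to 0.155), CD83 and IL1B. Between HAQ/- and WT/HAQ they were TNFAIP2, with -3.98 ± 0.24 (SE) (adjusted p = 0.0108, alternatives 3.26e-55 to 0.196), IL1A and PTX3.

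The calls depended on which library was left out. Without the WT/- control library edgeR called 0 genes in every contrast, members or not, and an unadjusted p under 0.05 was held by 45, 39 and 70 members and by 2252, 2074 and 3264 of 15092 genes for WT/- against WT/HAQ, HAQ/- against WT/HAQ and HAQ/- against WT/-. Without the WT/- cGAMP library it also called 0 genes, with 54, 41 and 69 members and 2427, 2080 and 3102 of 15166 genes at that p. For WT/- against WT/HAQ, leaving out the WT/HAQ cGAMP library gave 15 members higher and 6 lower, beside 120 and 103 of all genes. Leaving out the HAQ/- control gave 64 members higher and 9 lower, beside 1526 and 1090 of all genes, and leaving out the HAQ/- cGAMP library gave the same member counts beside 1510 and 1077. For HAQ/- against WT/HAQ there were 0 members higher and 4 lower without the WT/HAQ control (9 and 34 of all genes), 0 and 21 without the HAQ/- cGAMP library (63 and 204), and 18 and 14 without the HAQ/- control (395 and 895). For HAQ/- against WT/- there were 24 members higher and 50 lower without the HAQ/- control (1144 and 1855 of all genes), and 5 and 73 without the HAQ/- cGAMP library (783 and 1311). Each of these fits has 1 residual degree of freedom, and a library left without its partner is assumed to vary like the others. The log2 differences of IL1A and IL1B between HAQ/- and WT/- stayed between -5.48 and -5.0 and between -5.81 and -5.17 over all 11 alternatives. The median log2 difference of the members was 0.60 (WT/- against WT/HAQ), -0.16 (HAQ/- against WT/HAQ) and -0.63 (HAQ/- against WT/-). For HAQ/- against WT/HAQ it turned to 0.26 without the WT/HAQ control and to 0.16 without the HAQ/- control, so its direction depended on those libraries. The median for WT/- against WT/HAQ was 0.92 without the WT/HAQ control and 0.32 without the WT/HAQ cGAMP library, and that for HAQ/- against WT/- was -0.345 without the HAQ/- control and -0.97 without the HAQ/- cGAMP library.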

How the data were processed

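RNA from 3 lines of SKOV3 cells, each as 1 control and 1 cGAMP library, had been sequenced after poly(A) selection. The deposited table holds estimated counts per gene, which the authors made with STAR and RSEM on GRCh38 (hg38) per the labels, and between 92.7% and 93.3% of the values of a library were whole. Versions and strand setting are not given in the sources used here. CPM values and ratios were computed from the table with Python 3.11.15 and pandas 2.3.3, and a count of 0 was set to 3 where a bound was needed. Intervals are Wilson intervals of the share of 2 libraries' counts. The line test used counts rounded to whole numbers in edgeR 4.0.16 (R 4.3.3) with TMM scaling over genes with a mean of at least 10, and DESeq2 1.42.0 was an alternative. On simulated counts for WT/- against WT/HAQ (14981 genes), edgeR recovered 63 of 100 genes changed 2-fold and 87 of 100 changed 4-fold, with 8 false calls. Positions and transcripts came from GENCODE release 44 and promoters from RefSeq (GRCh38.p14).

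The members, the gene lists and the tests were chosen with earlier results of these data known. Genes named in the text are the members with the smallest largest ratio, the highest mean CPM, the ends of each comparison between lines and up to 4 of each list, with others added for their class after their values were seen. Each line is 1 culture, so a p-value measures what the additive fit leaves over. Alternatives were other scalings, count minimums and ratio limits, each line or library left out, DESeq2, and no treatment term. A few items are not reported here.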

Additional observations from a re-analysis of the deposited data

Results flagged for a closer look

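A few genes stood at or under the limit in 2 lines and had a ratio of at least 1.5 in the other line, and the difference between the lines was not tested. TBC1D3H had rounded counts of 1 in the control and 94 after cGAMP in WT/HAQ, a ratio of 148 with a counting interval of 17.3 to 565, beside ratios of 0.269 (WT/-) and 0.345 (HAQ/-). It is 1 of a family of near-identical copies, and how the counting split their reads was not tested. SMIM11 had a ratio of 4.69 (3.37 to 6.53) in HAQ/-, with 44 and 166 counts, and 0.35 and 0.0548 in WT/HAQ and WT/-. CEACAM6, a cell adhesion molecule of the carcinoembryonic antigen family, had 1.91 (1.28 to 2.86) in HAQ/- beside 0.431 and 0.319. LY75-CD302, a transcript that reads through 2 genes, had 1.5 (1.18 to 1.93) in HAQ/-, and RP11-449H3.3 had 1.65 (1.28 to 2.14). DKFZp434P228 had 2.62 (1.81 to 3.71) in WT/- beside 0.637 and 0.534 in WT/HAQ and HAQ/-. With 1 library per condition these ratios have no replicate check. How reads were split between gene copies was not tested for any of these genes.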

How the results depend on the processing

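With TMM scaling 128 genes and with DESeq2 size factors 122 genes were at or under the limit in every line, all of them among the 139 members, and a minimum mean of 200 counts left 103. A minimum of 10 counts gave 220 genes, a ratio limit of 0.5 gave 31 and a limit of 0.8 gave 555, and leaving out a line gave between 153 and 601. The share at or under the limit in the line left out moved from 90.85% to 71.9% (minimum of 10) and 97.17% (minimum of 200) in WT/HAQ and from 69.15% to 56.12% and 80.47% in WT/-. In the line test, WT/- against WT/HAQ called 60 members with all genes of at least 1 count and 0 without a treatment term, and between 0 and 73 with a library left out. HAQ/- against WT/HAQ called 23 with DESeq2, 26 with all genes, 0 without a treatment term, and between 0 and 32 with a library left out. HAQ/- against WT/- called 3 without a treatment term and between 0 and 78 with a library left out. With no treatment term edgeR gave 10, 7 and 29 members at an unadjusted p under 0.05 in the 3 contrasts. Among all genes the fits without a treatment term called 115 higher and 132 lower, 6 and 8, and 341 and 369, with 2963, 1663 and 3863 at an unadjusted p under 0.05, and the fits with all genes of at least 1 count called 1035 and 862 in the first contrast and 251 and 496 in the second. The cause of these differences was not tested.

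Over the scalings and minimums the median log2 ratio of the genes chosen lay between -1.68 and -1.62 (WT/HAQ), -1.24 and -1.21 (WT/-) and -0.86 and -0.79 (HAQ/-). Another scaling shifts all genes of a line by the same amount, so whether a log2 ratio stays within its counting interval depends on that interval's width. Of 372 log2 ratios of the 62 members picked for naming, 351 stayed within it under the other scalings and 21 did not. Intervals are narrower in members with more counts. Depth limits the sparse members most. In the line test the control and cGAMP libraries of a line stood as its 2 samples, and the treatment term matched libraries across lines. With 1 library for each line and treatment, no replicate number is shared that could serve as a replicate block.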
